A study of Mus musculus with 4 samples.

Results

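The genes described here are 10 myeloid C-type lectin receptors, Clec4d, Clec4e, Clec7a, Clec4a1, Clec4a2, Clec4a3, Clec4n, Clec5a, Clec12a and Clec2d, taken by name from the 54532 genes counted in lung CD11b+Ly6g+ myeloid-derived suppressor cells (MDSCs). The MDSCs were sorted on day 10 from C57BL/6 mice, 6 to 8 weeks of age, that all carried the same model of the pre-metastatic niche (PMN) in the lung. MCM, medium in which B16F10 melanoma cells had grown, was given into the peritoneum on 10 days at 300 μl per mouse, and B16F10 cells were put into the tail vein on day 7. The 4 groups were untreated PMN mice (control, Ctrl) and PMN mice given TP5, sFD17 or FR17 under the skin at a daily 40 μM/kg that began on day 3. TP5 is free thymopentin, FR17 is an MMP2-cleavable peptide that carries TP5 and releases an assembling fragment in the lung, and sFD17 also assembles but carries a scrambled TP5 sequence. Each group was 1 library from the pooled cells of 10 to 12 mice, and no healthy mice were among the libraries. There were no replicates, so no difference between groups could be tested, and the values below compare 1 library with another.

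The libraries held 15543071 to 19638228 counts, and all 10 receptors belonged to the 16369 genes that reached 10 counts in 1 library or more. Levels are given as CPM, counts scaled to a common library total, after TMM scaling, which sets most genes equal between libraries, and differences as log2 fold changes with a 95% exact counting interval. The intervals cover counting error only, and reads are not independent molecules. The 18 neutrophil markers, Ly6g, S100a8 and S100a9 among them, took 4.17 to 4.85% of the counts of each library, and none was at 0. The 16 macrophage markers took 1.01% of the counts in the control library, 0.791% with TP5, 0.327% with sFD17 and 1.49% with FR17, although the sort was for Ly6g. Monocyte markers, 12 genes, took 0.532 to 0.583% and lung structural markers, 12 genes, 0.092 to 0.134%. Because the RNA came from bulk cells, fewer cells of a type and less RNA per cell cannot be told apart.

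C-type lectin receptors are surface proteins with which myeloid cells sense glycans and glycolipids of microbes and material from dying cells. Activating members signal through Syk, either from their own tail or through the adaptors FcRγ (Fcer1g) and DAP12 (Tyrobp), and Syk then engages Card9, Bcl10 and Malt1 to switch on NF-kB and cytokine genes. Inhibitory members carry an ITIM, a tail motif that recruits the phosphatases Shp1 (Ptpn6) and Shp2 (Ptpn11). Neutrophils and the granulocytic MDSCs that resemble them are known to carry several receptors of both kinds.

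All 10 genes lie on mouse chromosome 6 (GRCm38), in 3 places. Clec4a1, Clec4a3, Clec4a2, Clec4n, Clec4d and Clec4e stand, in that order, within 368.0 kb at chr6:122921848-123289870, a stretch with 9 protein coding genes. Clec2d, Clec12a and Clec7a stand within 292.2 kb at chr6:129180615-129472779, and Clec5a is alone at chr6:40574894-40585821. Clec4d at chr6:123262111-123275265 on the plus strand and Clec4e at chr6:123281789-123289870 on the minus strand are neighbours that point at each other. GENCODE M21 labels Clec7a a polymorphic pseudogene and the other 9 protein coding. No exon of the 10 genes overlaps an exon of another gene there. Of the 50-base stretches in their transcripts, 6.83% in Clec4a2 also occur in other genes, 3.85% in its neighbour Clec4a4 and 2.3% in Clec4b1, so reads of these could be split. The share was 1.98% for Clec2d, 0.686% for Clec4n, 0.457% for Clec12a and 0 for the other 6.

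The promoters of 4 genes are shown because the results below turn on them: Clec4d and Clec4e, which under TMM scaling differed most between FR17 and sFD17, Clec4a3, which differed most in the other direction and most of all when libraries were scaled by library size alone or by neutrophil marker counts, and Clec2d, which had the largest upward difference from control under TMM scaling. Each is the RefSeq promoter (GRCm38.p6) from 250 bases before to 50 bases after the start, on the strand of the gene, and 9 of the 10 genes had an entry. Capitals mark matches, on either strand, to GAGGAA (the core bound by PU.1), TTGCNNAA (C/EBP), GGGANTTCC (NF-kB), GAAANNGAA (IRF) or TTCNNNGAA (STAT), and where 2 matches overlap they form 1 run of capitals. Positions are bases from the start to the first base of a match, negative upstream.
Clec4d (chr6:123261857-123262156, plus strand): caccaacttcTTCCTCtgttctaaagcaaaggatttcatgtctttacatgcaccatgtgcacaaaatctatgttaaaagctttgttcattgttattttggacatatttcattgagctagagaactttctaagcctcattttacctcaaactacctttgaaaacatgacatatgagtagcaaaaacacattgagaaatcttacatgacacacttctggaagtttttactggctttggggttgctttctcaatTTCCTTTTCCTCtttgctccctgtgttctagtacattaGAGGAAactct
Clec4e (chr6:123289822-123290121, minus strand): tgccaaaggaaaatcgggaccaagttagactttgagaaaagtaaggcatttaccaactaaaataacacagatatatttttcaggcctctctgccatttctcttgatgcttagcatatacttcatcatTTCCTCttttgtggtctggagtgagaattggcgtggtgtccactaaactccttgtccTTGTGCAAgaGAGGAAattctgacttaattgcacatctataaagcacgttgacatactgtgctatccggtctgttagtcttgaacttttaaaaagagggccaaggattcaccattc
Clec4a3, the second of 2 starts (chr6:122952394-122952693, plus strand): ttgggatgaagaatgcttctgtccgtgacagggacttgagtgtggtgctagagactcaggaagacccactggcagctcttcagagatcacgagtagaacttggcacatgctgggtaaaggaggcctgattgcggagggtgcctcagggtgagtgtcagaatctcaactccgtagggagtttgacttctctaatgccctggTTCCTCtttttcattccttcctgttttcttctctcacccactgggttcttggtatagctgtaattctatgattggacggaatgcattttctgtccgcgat
Clec2d (chr6:129180365-129180664, plus strand): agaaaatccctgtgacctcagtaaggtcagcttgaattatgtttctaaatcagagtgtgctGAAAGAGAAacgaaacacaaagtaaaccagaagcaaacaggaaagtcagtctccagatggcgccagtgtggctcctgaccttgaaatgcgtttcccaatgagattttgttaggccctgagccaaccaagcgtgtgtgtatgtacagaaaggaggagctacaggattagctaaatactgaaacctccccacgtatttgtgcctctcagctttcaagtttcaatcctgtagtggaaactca

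The PU.1 core was found in 7 of the 9 genes, against 28.3% of all 32851 promoters of the same length. Clec4d held 3 such cores, 1 of them upstream of the start, Clec4e held 2 on either side of its C/EBP match, and Clec4a3 held 1 at its second start only. The C/EBP letters occurred in Clec4e at position -66 and in Clec12a at -140, 2 of 9 genes against 10.8% of all promoters. The IRF letters occurred in Clec4d just after the start, overlapping a PU.1 core, and in Clec2d at -189, 2 of 9 genes against 8.56%. The STAT letters occurred only in Clec4a2, at -42, against 8.3%, and the NF-kB letters in none of the 9, against 1.68%. These are matches of letters in a short window and say nothing of binding. A gene was counted when any of its promoters matched, whereas the shares are over promoters, and Clec7a and Clec4a3 had 2 promoters each.

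Clec4d, Clec4e and Clec7a were the abundant receptors, and together they made up 86.8% of the counts on the 10 genes in the control library, 84.91% with TP5, 87.88% with sFD17 and 80.46% with FR17. In control, Clec4d ranked 67 among all genes by CPM, Clec4e 79 and Clec7a 90, while the other 7 ranked between 1363 and 2762. Per kilobase of gene length the order in control was Clec4d (1105 CPM per kb), Clec7a (531), Clec4e (302), Clec4n (96.2), Clec4a3 (71.8), Clec2d (66.8), Clec4a1 (41.0), Clec4a2 (32.6), Clec5a (27.5) and Clec12a (23.9). With 1 library per group, the spread behind each place in this order is unknown. The 10 genes together took 0.530% of the counts in the control library, 0.490% with TP5, 0.544% with sFD17 and 0.405% with FR17.

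**Figure D1:**
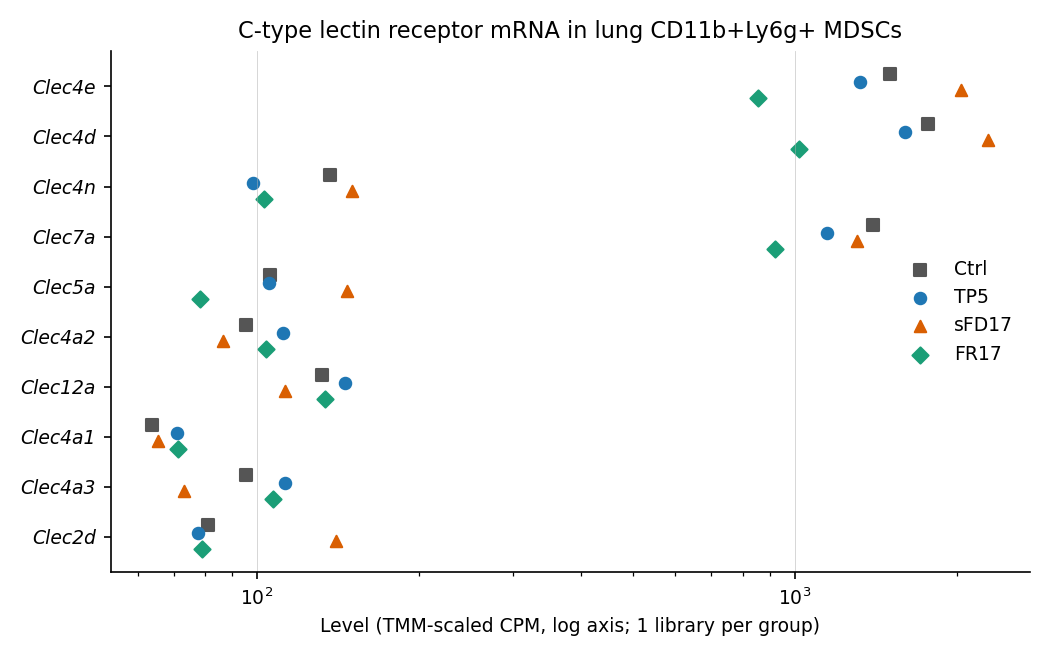
The TMM-scaled level of each receptor in CPM (x axis, logarithmic) is plotted for the 4 libraries, 1 point per library. Clec4e, Clec4d and Clec7a stand at 853 CPM or more in every library and the other 7 receptors at 150.5 CPM or less. On this scale the FR17 point is lowest for Clec4e, Clec4d, Clec7a and Clec5a, while for Clec7a the sFD17 library is lowest under neutrophil marker counts.

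Clec4e, Clec4d and Clec4n need the adaptor FcRγ. Clec4e (Mincle) binds mycobacterial glycolipid and the SAP130 protein of dying cells. It had 25354 counts in the control library, 23175 with TP5, 26864 with sFD17 and 19581 with FR17, or 1501, 1321, 2036 and 853 CPM. The sFD17 library was thus highest and FR17 lowest, with log2 fold changes against control of 0.44 (0.41 to 0.46) in sFD17, -0.18 (-0.21 to -0.16) in TP5 and -0.82 (-0.84 to -0.79) in FR17. Clec4d (MCL) forms a complex with Mincle at the cell surface. It had 29855 counts in the control library, 28109 with TP5, 30186 with sFD17 and 23410 with FR17, or 1767, 1602, 2287 and 1019.8 CPM. The order of the libraries was that of Clec4e, with log2 fold changes of 0.37 (0.35 to 0.40) in sFD17, -0.14 (-0.16 to -0.12) in TP5 and -0.79 (-0.82 to -0.77) in FR17. When the libraries were scaled by their neutrophil marker counts instead, the sFD17 value of Clec4d turned to -0.05 and that of Clec4e came to 0.02, while FR17 was the lowest library for both against the summed list. The 18 markers did not move together, since in FR17 7 stood above control and 11 below it, from Camp at 0.53 to Csf3r at -1.04. Against single markers, compared after the data were seen, FR17 was the lowest library for 14 of the 18 and below control for 15, but Clec4e was above control at 0.22 per count of Csf3r, 0.07 per count of Cxcr2 and 0.09 per count of Hdc, and Clec4d at 0.25, 0.09 and 0.11. Clec4n (Dectin-2), a receptor for fungal mannans, had 2308 counts in the control library, 1722 with TP5, 1986 with sFD17 and 2372 with FR17, or 137, 98.2, 150 and 103 CPM. It was lowest in TP5, at -0.48 (-0.57 to -0.39), and its value of 0.14 (0.05 to 0.23) in sFD17 turned to -0.08 with library size alone and -0.28 with neutrophil marker counts.

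The other activating receptors are Clec7a and Clec5a. Clec7a (Dectin-1), the receptor for fungal β-glucan, signals to Syk through its own tail. It had 23649 counts in the control library, 20104 with TP5, 17248 with sFD17 and 21063 with FR17, or 1400.05, 1146, 1307 and 918 CPM. All 3 peptide libraries were below control, at -0.29 (-0.32 to -0.26) in TP5, -0.10 (-0.13 to -0.07) in sFD17 and -0.61 (-0.64 to -0.58) in FR17, and they were below it under each of the 4 scalings. Clec5a (MDL-1), which signals with DAP12, had 1784 counts in the control library, 1850 with TP5, 1944 with sFD17 and 1796 with FR17, or 106, 105, 147 and 78.2 CPM. It was higher in sFD17, at 0.48 (0.39 to 0.57), and lower in FR17, at -0.43 (-0.53 to -0.34), while the TP5 value, with an interval of -0.10 to 0.09, could not be told from control at this depth. Scaling by neutrophil marker counts brought the sFD17 value of Clec5a to 0.06 and the FR17 value to -0.18.

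The inhibitory receptors and their relatives stood between -0.38 and 0.24 against control in the 3 peptide libraries under TMM scaling, and sFD17, not FR17, was the lowest library for 3 of the 4 genes. Clec4a2 (DCIR1), an ITIM receptor of myeloid cells, had 1612 counts in the control library, 1962 with TP5, 1141 with sFD17 and 2388 with FR17, or 95.4, 112, 86.5 and 104 CPM. Clec12a (MICL), an ITIM receptor for uric acid crystals on neutrophils and monocytes, had 2235, 2562, 1491 and 3077 counts in the same order, or 132, 146, 113 and 134 CPM. Both were lower in sFD17, Clec4a2 at -0.14 (-0.25 to -0.03) and Clec12a at -0.23 (-0.32 to -0.13), and higher in TP5, at 0.23 (0.13 to 0.32) and 0.14 (0.06 to 0.22). In FR17 Clec4a2 stood at 0.12 (0.03 to 0.22) and Clec12a at 0.02 (-0.06 to 0.10). Clec4a3 (DCIR3), a relative of DCIR1, had 1610 counts in the control library, 1976 with TP5, 965 with sFD17 and 2465 with FR17, or 95.3, 113, 73.1 and 107 CPM. Its sFD17 value of -0.38 (-0.50 to -0.27) was the lowest of the 10 receptors in that library, and under the other 3 scalings it ranged from -0.34 to -0.80, while in FR17 it stood at 0.17 (0.08 to 0.26). Clec4a1 (DCIR4), a further relative, had 1080, 1246, 866 and 1637 counts, or 63.9, 71.0, 65.6 and 71.3 CPM. Its level in sFD17 was within counting error of control under TMM, at 0.04 (-0.09 to 0.17), and turned to -0.18 with library size alone and -0.38 with neutrophil marker counts, and in FR17 it stood at 0.16 (0.05 to 0.27). With neutrophil marker counts the FR17 values of the 3 Clec4a genes came to 0.38 to 0.43 and that of Clec12a to 0.28.

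Clec2d (Clr-b), the ligand that the inhibitory NK cell receptor Klrb1b recognises, was highest in sFD17. It had 1368 counts in the control library, 1364 with TP5, 1851 with sFD17 and 1819 with FR17, or 81.0, 77.8, 140.3 and 79.2 CPM. Against control sFD17 stood at 0.79 (0.69 to 0.89), the largest difference upward of any of the 10 genes against control under TMM scaling. It was above control at 0.58 with library size alone and at 0.37 with neutrophil marker counts, under which Clec4a3 at 0.43, Clec4a1 at 0.41 and Clec4a2 at 0.38 in FR17 stood higher. The FR17 value of -0.03 (-0.13 to 0.07) could not be told from control, and turned to 0.21 and 0.23 under those scalings. All 20 listed interferon-stimulated genes were also higher in sFD17, with a summed level 4.545 times that of control, against 0.847 times in TP5 and 0.729 times in FR17, and with neutrophil marker counts 19 of the 20 were higher. Their part in the Clec2d result was not tested.

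**Figure D2:**
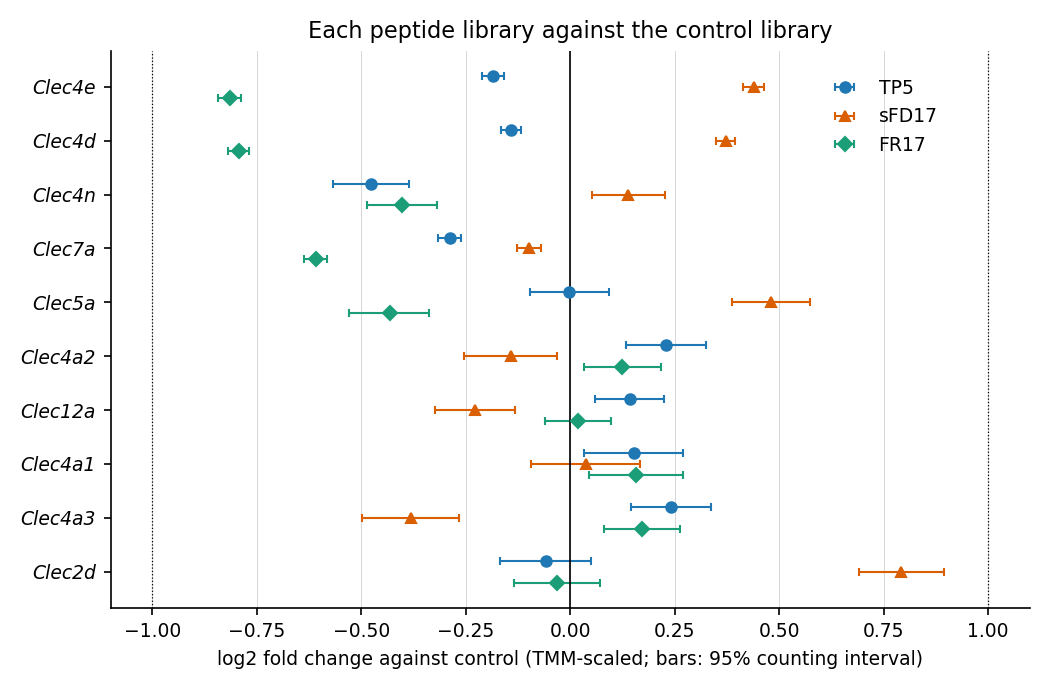
The TMM-scaled log2 fold change of each receptor against control (x axis) is plotted for the TP5, sFD17 and FR17 libraries, with bars for the 95% counting interval and dotted lines at 2-fold. Every point lies inside the 2-fold lines, and Clec4e and Clec4d stand farthest to the left in FR17 and Clec2d farthest to the right in sFD17.

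None of the 10 receptors was past a 2-fold difference from control in any peptide library. In TP5, 4 were higher and 6 lower, with a median log2 fold change of -0.03 against 0.00062 over all genes tested, where 3.2% of all genes were at least 2-fold higher and 4.99% at least 2-fold lower. In sFD17, 6 were higher and 4 lower, with a median of 0.09 against -0.03 and a background of 5.32% higher and 6.47% lower. In FR17, 4 were higher and 6 lower, with a median of -0.22 against 0.02 and a background of 3.92% higher and 3.58% lower. These tallies rested on the scaling: library size alone gave 4 higher and 6 lower in sFD17 and 5 of each in TP5 and in FR17, and neutrophil marker counts gave 3 higher and 7 lower in sFD17 and 5 of each in FR17. By edgeR's exact test at an unadjusted p under 0.05, which compares libraries and not conditions, 0 of the 10 were called in any of these 3 comparisons. The lowest exact test p-values were 0.335 in TP5, 0.103 in sFD17 (Clec2d) and 0.137 in FR17 (Clec4e), with 1.98%, 4.79% and 1.83% of all genes called. The 3 comparisons share the control library.

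Between FR17 and sFD17, which differ in that the TP5 sequence is scrambled in sFD17, the 5 activating receptors were lower in FR17 and the 4 inhibitory receptors and their relatives higher under TMM scaling, although Clec7a and Clec4n turned under neutrophil marker counts. Clec4e was lower in FR17 with a log2 fold change of -1.25 (-1.28 to -1.23), and Clec4d with -1.17 (-1.19 to -1.14). Clec5a stood at -0.91 (-1.01 to -0.82), Clec2d at -0.82 (-0.92 to -0.73), Clec4n at -0.54 (-0.63 to -0.46) and Clec7a at -0.51 (-0.54 to -0.48). Clec4a3 at 0.55 (0.45 to 0.66), Clec4a2 at 0.27 (0.16 to 0.37), Clec12a at 0.25 (0.16 to 0.34) and Clec4a1 at 0.12 (0.00036 to 0.24) were higher in FR17. Thus 2 of 10 receptors were past 2-fold lower and none past 2-fold higher, where the background was 10.8% lower and 11.3% higher over all genes. By the exact test p was 0.0233 for Clec4e and 0.0352 for Clec4d, unadjusted, with 12.6% of all genes called. In the same comparison all 16 macrophage markers were higher in FR17, 12 of them past 2-fold, with a median of 1.82, and 17 of the 18 neutrophil markers were lower, 4 past 2-fold, with a median of -0.53. With library size alone 12 of the 18 were lower and 6 higher, 1 past 2-fold, with a median of -0.07, while the macrophage markers stayed higher, 15 past 2-fold. Their part in the receptor values was not tested.

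Which receptors passed 2-fold here depended on the scaling. DESeq2 size factors gave -1.30 for Clec4e and -1.21 for Clec4d, but library size alone gave -0.79 and -0.70, and neutrophil marker counts gave -0.58 and -0.49. Per count of Csf3r alone, 1 of the markers that were past 2-fold lower in FR17, the values were 0.05 and 0.14. Against the 18 markers taken singly, Clec4e was lower in FR17 than in sFD17 for 15 and Clec4d for 14. With library size alone and with neutrophil marker counts 1 receptor was past 2-fold, Clec4a3, which was higher in FR17 at 1.01 and 1.23. There 25.7% and 35.5% of all genes were at least 2-fold higher and 4.78% and 3.33% lower. Clec7a and Clec4n turned to 0.17 and 0.14 with neutrophil marker counts, while the other 8 kept their direction under all 4 scalings. Library size alone moved the median gene to 0.52 and neutrophil marker counts moved it to 0.73, from 0.07 under TMM. The share of 2-fold calls over all genes that were higher in FR17 went from 51.1% to 84.3% and 91.4%. Against control, library size alone moved the share of higher calls from 45.1% to 27.4% in sFD17 and from 52.2% to 77.5% in FR17, and neutrophil marker counts moved it to 14.9% and 78.5%, with 0 receptors past 2-fold under every scaling. Library size alone put the median gene at -0.23 in sFD17 and 0.26 in FR17 against control, and neutrophil marker counts put it at -0.43 and 0.27.

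**Figure D3:**
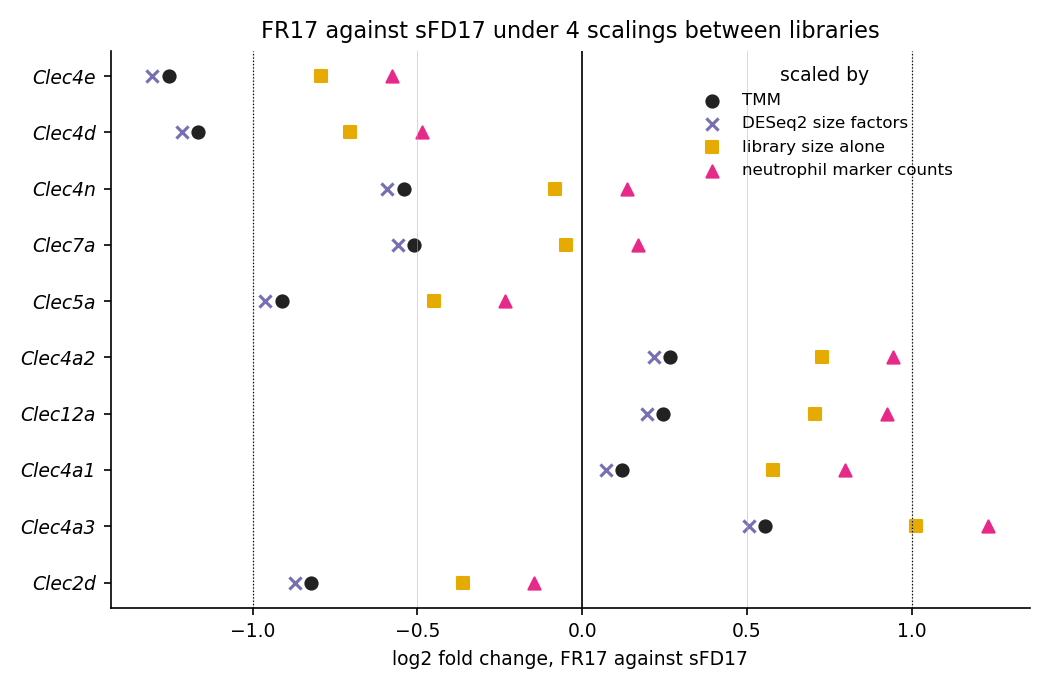
The log2 fold change of each receptor in FR17 against sFD17 (x axis) is plotted under 4 ways of scaling the libraries, with dotted lines at 2-fold. The points of a receptor shift together by about the same distance, so that Clec4e, Clec4d and Clec5a stay to the left of 0 and the 3 Clec4a genes and Clec12a stay to the right, whereas Clec7a and Clec4n cross 0 under neutrophil marker counts.

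Ratios between receptors of the same library do not depend on the scaling. For every 100 counts on Clec4d, Clec4e had 84.9 in the control library, 82.5 with TP5, 89.0 with sFD17 and 83.6 with FR17, so the ratio of these neighbours, which act as a complex, moved little. The 3 Clec4a genes together had 7.79 counts (95% interval 7.55 to 8.04) per 100 on Clec4d and Clec4e in the control library, 10.1 (9.82 to 10.4) with TP5, 5.21 (5.02 to 5.41) with sFD17 and 15.1 (14.7 to 15.5) with FR17. The FR17 ratio was 2.90-fold that of sFD17, and the 4 intervals do not overlap. Clec4a3 had 5.39 counts per 100 on Clec4d in the control library, 7.03 with TP5, 3.20 with sFD17 and 10.5 with FR17, a 3.29-fold span. Clec12a, on another part of the chromosome, had 7.49, 9.12, 4.94 and 13.1, and its FR17 ratio was 2.66-fold that of sFD17. The same quotient was 2.70-fold for Clec4a2 and 2.44-fold for Clec4a1, but 1.58-fold for Clec7a, 1.54-fold for Clec4n, 1.27-fold for Clec2d and 1.19-fold for Clec5a. Per 100 counts of Clec7a, Clec4n had 9.76 counts in the control library, 8.57 with TP5, 11.5 with sFD17 and 11.3 with FR17, so the 95% intervals of sFD17 and FR17 overlapped and those of the other libraries lay below them.

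**Figure D4:**
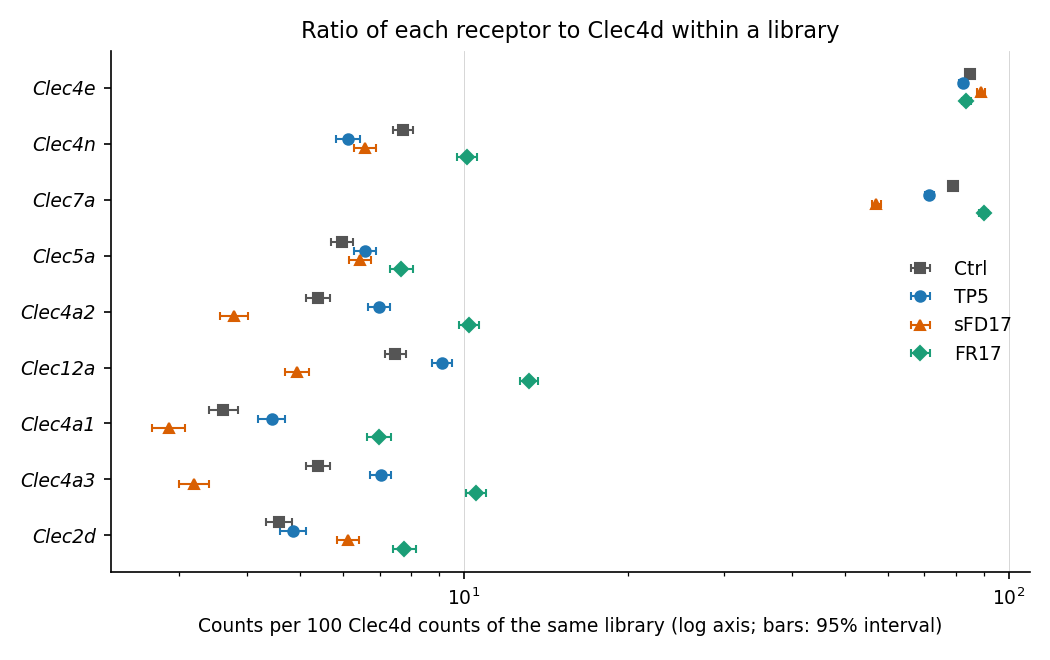
Counts of each receptor per 100 counts of Clec4d in the same library (x axis, logarithmic) are plotted with their 95% counting intervals. Clec4e stays between 82.5 and 89.0 in the 4 libraries, while Clec4a2, Clec12a, Clec4a1 and Clec4a3 run in the order sFD17, control, TP5 and FR17.

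The macrophage marker share ran from 0.327% in sFD17 through 0.791% in TP5 and 1.01% in control to 1.49% in FR17, an order in which TP5 and control are exchanged compared with the Clec4a ratio. Dendritic cell markers, 11 genes, took 0.0255% of the counts in sFD17, 0.0273% in control, 0.0439% in FR17 and 0.0508% in TP5. Per 100 macrophage marker counts, Clec4a3 had 0.928 counts in the control library, 1.46 with TP5, 1.90 with sFD17 and 0.840 with FR17. The FR17 value per macrophage marker count was 0.442 times that of sFD17 for Clec4a3, 0.362 for Clec4a2, 0.357 for Clec12a and 0.327 for Clec4a1. The same quotient was lower for the rest, at 0.211 for Clec7a, 0.207 for Clec4n, 0.170 for Clec2d, 0.160 for Clec5a, 0.134 for Clec4d and 0.126 for Clec4e. Against neutrophil markers, Clec4e had 3.52 counts per 100 in the control library, 2.95 with TP5, 3.57 with sFD17 and 2.39 with FR17, so FR17 was lowest and sFD17 near control against the summed list. Per 100 counts of Csf3r alone, Clec4e had 30.3, 37.0, 34.2 and 35.4 in the same order, with the control library lowest. FR17 was the lowest library against 14 of the 18 markers taken singly. The part of other cells in these ratios was not tested.

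**Figure D5:**
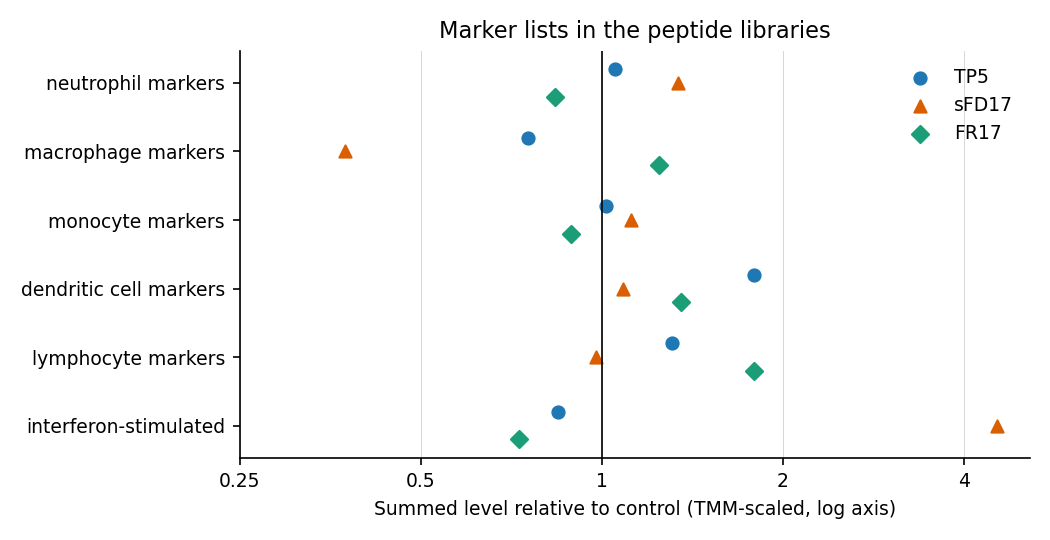
The summed TMM-scaled level of 6 marker lists relative to control (x axis, logarithmic) is plotted for the 3 peptide libraries. Macrophage markers stand at 0.375 in sFD17 and 1.24 in FR17, neutrophil markers at 1.34 and 0.837, and interferon-stimulated genes at 4.545 in sFD17.

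Free TP5 was also compared with the assembling peptides. In FR17 against TP5, 3 receptors were higher and 7 lower, none past 2-fold, where 7.04% of all genes were at least 2-fold higher and 2.88% lower, and 3.65% were called by the exact test. The largest differences were Clec4d at -0.65 (-0.68 to -0.63) and Clec4e at -0.63 (-0.66 to -0.60), with the lowest exact p at 0.235, while Clec4a3 at -0.07 (-0.16 to 0.02) and all 3 receptors counted as higher, Clec4a1 at 0.01 (-0.10 to 0.11), Clec2d at 0.03 (-0.07 to 0.13) and Clec4n at 0.07 (-0.02 to 0.16), were within counting error under TMM. Clec4a2, Clec4a3 and Clec12a, at -0.10, -0.07 and -0.12, turned to 0.09, 0.12 and 0.07 with library size alone, which left 6 higher and 4 lower. With neutrophil marker counts Clec7a also turned, from -0.32 to 0.0093, and the tally was reversed at 7 higher and 3 lower. In sFD17 against TP5, 6 were higher and 4 lower, none past 2-fold, with a background of 6.74% higher, 5.64% lower and 4.59% called by the exact test. Clec2d at 0.85 (0.75 to 0.95; exact test p = 0.08), Clec4e at 0.62 and Clec4n at 0.62 stood highest, and Clec4a3 at -0.62 lowest, and under both other scalings 5 were higher and 5 lower. Library size alone moved the share of higher calls from 71.0% to 83.6% in FR17 against TP5 and from 54.4% to 30.1% in sFD17 against TP5, and neutrophil marker counts moved them to 88.8% and 23.8%, with 0 receptors past 2-fold under every scaling.

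The partners of the receptors were listed as 35 genes, and all were tested. Fcer1g, the adaptor of Clec4e, Clec4d and Clec4n, had 10556 counts in the control library, 9115 with TP5, 9076 with sFD17 and 12200 with FR17, with log2 fold changes of -0.27, 0.14 and -0.23 against control for TP5, sFD17 and FR17. Tyrobp, the adaptor of Clec5a, stood at -0.23, -0.02 and -0.37. Per 100 counts of Fcer1g, Clec4e had 240 counts in the control library, 254 with TP5, 296 with sFD17 and 161 with FR17. Syk, the kinase below the activating receptors, stood at 0.44 in sFD17, -0.26 in TP5 and -0.56 in FR17, and Card9 at -0.22, -0.40 and -0.34. The phosphatases Ptpn6 and Ptpn11, which serve the ITIM receptors, stood at 0.35 and 0.57 in sFD17 and at -0.19 and 0.07 in FR17.

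Of the 35 genes, 29 were higher in sFD17 with a median of 0.35 and 29 were lower in FR17 with a median of -0.29, against medians of -0.03 and 0.02 over all genes. These directions rested on the scaling, since with neutrophil marker counts 14 of the 35 were higher in sFD17, with a median of -0.05, and 19 were lower in FR17, with a median of -0.04. Past 2-fold in sFD17 were Nfkb2, a subunit of NF-kB, at 1.12, and 3 genes downward, the kinase Src at -1.12 and the NK cell receptors Klrb1c at -1.08 and Klrb1a, which had 20 counts in control and 1 in sFD17. The Nfkb2 call was lost with library size alone and with neutrophil marker counts, under which 0 of the 35 were past 2-fold higher and 3 lower. Over all genes those scalings gave 3.54% and 2.53% higher and 9.37% and 14.5% lower in sFD17. In FR17 only Klrb1c at 1.21 and Klrb1f at 1.74 were past 2-fold, and in TP5 only Klrb1a at -1.34. The backgrounds over all genes were 5.32% higher and 6.47% lower in sFD17, 3.92% higher in FR17 and 4.99% lower in TP5. The Klrb1a, Klrb1c and Klrb1f values rest on 129 counts or fewer in each library, and Klrb1c is also among the lymphocyte markers. Klrb1b, the receptor for Clec2d, had 269 counts in the control library, 462 with TP5, 147 with sFD17 and 517 with FR17, so it was lowest in the library in which Clec2d was highest, and lymphocyte markers summed to 0.979 times control in sFD17, 1.31 times in TP5 and 1.79 times in FR17. Between FR17 and sFD17, 7 of the 35 were past 2-fold lower, among them Nfkb2 at -1.61, Fgr at -1.23, Relb at -1.20, Lgals9 at -1.09 and Malt1 at -1.04, and 5 were higher, Src, Klrb1a, Klrb1b, Klrb1c and Klrb1f, where 10.8% of all genes were lower and 11.3% higher. With library size alone 1 of the 35 was past 2-fold lower here, and with neutrophil marker counts 0 were, while 5 were higher under each, against the 25.7% and 35.5% of all genes given above.

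Genes that these receptors are known to induce were listed as 21 genes, of which 20 were tested. In sFD17 15 were higher and 5 lower, with 4 past 2-fold higher, Csf3 at 1.47, Il23a at 1.12, Tnf at 1.09 and Nlrp3 at 1.01, and 2 past 2-fold lower, Il6 at -1.20 and Il10 at -1.05, over a background of 5.32% higher and 6.47% lower. In FR17 4 were higher and 16 lower, and Cxcl2, a chemokine for neutrophils, was past 2-fold at -1.03, the 1 such gene beside a background of 3.58% lower. With neutrophil marker counts 10 were higher and 10 lower in sFD17, and 6 were higher and 14 lower in FR17. Past 2-fold in sFD17, 1 was then higher and 3 lower, over a background of 2.53% higher and 14.5% lower. With library size alone 1 was higher and 2 lower, over 3.54% and 9.37%. The Cxcl2 call in FR17 was lost under both scalings, with 0 past 2-fold lower and 1 higher. The background in FR17 was 1.93% lower and 6.67% higher with library size alone, and 1.91% and 6.96% with neutrophil marker counts. In TP5 7 were higher and 13 lower, with Il12b at 1.17 past 2-fold higher and Il10 at -1.19 and Csf2, with 11 counts against 24, at -1.05 lower, where the background was 3.2% higher and 4.99% lower. These genes also respond to many other receptors.

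Among 29 other C-type lectins, of which 25 were tested, Mrc1, Colec12 and Clec10a differed most in sFD17. Mrc1, the mannose receptor, had 8819 counts in the control library, 5852 with TP5, 1652 with sFD17 and 14180 with FR17, with a log2 fold change of -2.06 in sFD17. It is also 1 of the 16 macrophage markers, all of which were lower in sFD17, with a median of -1.50. Clec10a, a galactose-type lectin, had 1489, 902, 353 and 2622 counts, with -1.72 in sFD17, and Colec12, a scavenger receptor, stood at -1.86 in sFD17 and -1.56 in TP5. Past 2-fold were 3 lower and 1 higher in sFD17, 2 lower and 2 higher in TP5 and 1 higher in FR17, the last being Cd207, a receptor of dendritic cells, whose count was 7 in control but 41 in FR17. Over all genes 6.47% were lower and 5.32% higher in sFD17, 4.99% lower and 3.2% higher in TP5 and 3.92% higher in FR17, so 1 of 25 in FR17 was near the background. Those past 2-fold lower in sFD17 numbered 5 with library size alone and 6 with neutrophil marker counts. Over all genes the share lower in sFD17 also went up, to 9.37% and 14.5%. In the Clec4 stretch, the 3 tested neighbours that are not among the 10 receptors had few counts: Clec4b1 had 91 to 340, Clec4a4 20 to 36 and Clec4b2 20 to 47. Along the chromosome the FR17 against sFD17 values ran 0.12 for Clec4a1, 0.55 for Clec4a3, -0.68 for Clec4a4, 1.09 for Clec4b1, 0.27 for Clec4a2, -0.88 for Clec4b2, -0.54 for Clec4n, -1.17 for Clec4d and -1.25 for Clec4e, so adjacent genes of the stretch differed in direction.

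By the distance between the 3 log2 fold changes against control, over 8108 genes with at least 100 counts in every library, Clec4d and Clec4e were the most alike of the 10 receptors, at a distance of 0.083. Clec4e ranked 12 among the genes nearest to Clec4d, and Clec4d ranked 8 among those nearest to Clec4e. The nearest genes to Clec4e were Ipcef1, Lilra6 and Selenon, and Lilra6 was also among the 3 nearest to Clec4d. For the other 8 the nearest of the 10 receptors ranked between 280 (Clec4a2 for Clec12a) and 1354 (Clec4d for Clec5a). The nearest genes were Il1a for Clec4n and Rps27rt, Shisa5 and Nt5c3 for Clec2d. These patterns rest on 4 libraries, 1 of which enters every difference.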

How the data were processed

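RNA was sequenced from sorted lung CD11b+Ly6g+ MDSCs, 1 library per group, grouped by the treatment label. The authors deposited raw counts of reads per gene without normalization. The submitters' processing notes name HISAT2 2.0.5, StringTie 1.3.3b, featureCounts 1.5.0-p3, edgeR 3.18.1 and GRCm38.p6. Whether counting used the strand is not given in the sources used here. GENCODE M21 lists 54409 of the 54532 genes, 53499 of them at identical coordinates.

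The members and all lists were chosen with earlier results of these data known. All 10 members are named. From each other list, genes were named from the 3 with the largest change per peptide and at least 50 counts; Fcer1g, Tyrobp, Syk, Card9, the Klrb1 genes, the neighbours of the Clec4 genes, Cd207, Ly6g, S100a8, S100a9 and the pathway and response genes past 2-fold were named in addition, after their values were seen. Some genes that these rules select are not reported here.

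Genes with at least 10 counts in 1 library were kept (16369). Log2 fold changes used edgeR 4.0.16 (R 4.3.3), TMM factors (0.849 to 1.17) and a prior count of 2, and a call was a 2-fold difference. Intervals are 95% Clopper-Pearson intervals of the pair of counts. The exact test took its trended dispersion from all 4 libraries treated as 1 group (common coefficient of variation 0.268), so treatment differences are part of it. Likeness was the Euclidean distance of 3 log2 fold changes. Alternatives were DESeq2 1.42.0 size factors, library size alone, neutrophil marker counts, a prior count of 0.5, no filter, 10 counts in every library, the exact test, and a whole interval past 2-fold. Scaling Clec4d and Clec4e by single neutrophil markers, Csf3r, Cxcr2 and Hdc among them, was added after seeing the data. Fold changes were tested on simulated data. Tables and figures used pandas 2.3.3, scipy 1.17.1 and matplotlib 3.10.9.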

Additional observations from a re-analysis of the deposited data

How the results depend on the processing

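With 1 library per group the spread between mice is unknown, and the totals of 15543071 to 19638228 counts limit counting error only. The count of members past 2-fold between FR17 and sFD17 was 2 and came to 1 with library size alone and 1 with neutrophil marker counts. Pathway genes past 2-fold in TP5 went from 1 to 0 with 10 counts in every library, with the exact test and with the whole interval past 2-fold. In sFD17 they went from 4 to 2 with the exact test and 2 with the whole interval, and in FR17 from 2 to 1 with 10 counts in every library, 1 with the exact test and 0 with the whole interval. The filter of 10 counts in every library tests fewer genes, and for the other changes the cause was not tested. Of the 60 differences of the members, the sign changed in 8 with library size alone, 11 with neutrophil marker counts, 0 with DESeq2 size factors and 0 with a prior count of 0.5, and none of the signs that changed belonged to a member past 2-fold. Single neutrophil markers in place of TMM were an alternative chosen after seeing the data. Between FR17 and sFD17, Clec4d was lower in FR17 against 14 of the 18 markers, with 2 values past 2-fold and the lowest at -1.19. It turned to 0.046 with Cxcr2 counts, 0.14 with Csf3r counts, 0.39 with Hdc counts and 0.25 with Trem1 counts. Clec4e was lower in FR17 against 15 of the 18 markers, with 3 values past 2-fold and the lowest at -1.28. It turned to 0.049 with Csf3r counts, 0.30 with Hdc counts and 0.16 with Trem1 counts and came to -0.04 with Cxcr2 counts. Cxcr2, Csf3r, Hdc and Trem1 were themselves past 2-fold lower in FR17 than in sFD17. No paired analysis was possible because each group has 1 library. No library could be left out for the same reason.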
